A study of Mus musculus with 18 samples.

Results

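Among 7 hepatocellular carcinomas of wild-type (WT) mice profiled on oligonucleotide arrays, tumours 17 and 19 carried a high signal of Rhbg, which encodes an ammonium transporter of pericentral hepatocytes. These 2 Rhbg-high tumours, selected on the Rhbg signal of the same arrays, were set against the 5 other WT tumours, numbered 16, 18, 20, 21 and 22. An array counted as Rhbg-high when its Rhbg probe set exceeded 6 on the log2 scale, which held for 2 of the 7 WT tumours and for 2 of the 18 arrays of the series. Rhbg measured 7.66 and 9.13 in tumours 17 and 19, against 3.97, 3.54, 3.28, 4.43 and 4.42 in the other WT tumours. Among the WT tumours the lowest value inside the limit was therefore 7.66 and the highest outside it 4.43, and the nearest array outside it over the whole series was a normal liver at 5.70.

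Every array held liver or tumour RNA of male mice. The Rhbg-high and the other WT tumours came from C3H/HeOuJ mice that had received the carcinogen diethylnitrosamine (DEN, 100 mg/kg) in week 12 and 6 injections of the hepatotoxin CCl4 (0.5 ml/kg) between weeks 13 and 23, and they were dissected at 54 weeks of age. For levels outside the split, 5 tumours of C3H/HeJ mice carrying the mutant Tlr4P712H allele were used, which had the same injections and age. A further 3 tumours came from WT C3H/HeOuJ mice with the same injections whose drinking water held antibiotics from week 10: vancomycin at 500 mg/l, and metronidazole, ampicillin and neomycin at 1 g/l. The 3 normal livers came from WT C3H/HeOuJ mice without injections, aged 15 weeks. Whether the 7 WT tumours were taken from 7 mice is not given in the sources used here, and the spread between arrays may in part be technical.

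The Wnt pathway acts through beta-catenin, a protein that a complex of Axin, Apc and Gsk3b marks for degradation until a Wnt ligand arrives. Stabilised beta-catenin then binds TCF/LEF factors on DNA and switches on target genes, among them its own inhibitors. In the liver lobule this signal is strong around the central vein, where hepatocytes make glutamine from ammonium through glutamine synthetase (Glul). Periportal hepatocytes, at the other end of the lobule, run the urea cycle and break down amino acids such as histidine. Mouse liver tumours with activated beta-catenin are known for high Glul and low periportal enzymes.

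The values were log2 signals, so that a difference of 1 is 2-fold, and a signal under 4 was treated as background. Because the tumours were split on a transcript of the same arrays, every difference between them is a description of these 7 arrays and carries no test. Errors are standard errors (SE) of a limma fit over all 18 arrays, given after ±, with 2 arrays against 5. In bulk tissue, fewer cells of a type and less RNA per cell cannot be told apart.

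Of 9052 genes above background on at least 3 arrays, 252 had both Rhbg-high tumours above all 5 other WT tumours with a mean difference of at least 2-fold, which is 2.78%. On the other side, 480 genes lay below all 5 by as much, which is 5.3%. Of these, 160 were also above and 258 also below all 16 other arrays, normal liver included. By the limma fit, 273 genes (3.02%) were higher and 487 (5.38%) lower at an adjusted p under 0.05, a ranking that follows from the split. Without tumour 17 those numbers were 142 and 244, and without tumour 19 they were 131 and 319. The median difference over all 9052 genes was -0.05. The filter favoured lower genes. A gene above background only in the Rhbg-high tumours could not enter, while a gene at background only there could. With no filter the limma fit gave 353 higher and 441 lower of 18192 genes. The shares of 2.78% and 5.3% are the ones to set beside the list counts below.

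The pericentral nitrogen genes had the highest median difference among the lists with at least 5 measured genes, 3.11, and 6 of 7 stood above all 5 other WT tumours by at least 2-fold. Glul was 12.73 and 13.14 in the Rhbg-high tumours, against 9.68, 8.54, 8.92, 10.88 and 11.08 in the other WT tumours, a difference of 3.11 ± 0.78. A dimmer probe set of Glul was 11.33 and 12.21 in the Rhbg-high tumours, against 5.90, 3.69, 3.62, 7.93 and 8.58 in the others. On the brighter one, both Rhbg-high tumours also exceeded the Tlr4-mutant tumours (8.47 to 11.61), the antibiotic tumours (11.16 to 11.37) and normal liver (11.80 to 12.02). Oat, the ornithine aminotransferase that feeds glutamate to Glul, measured 13.30 and 13.75 in the Rhbg-high tumours, against 8.54, 7.03, 7.03, 11.52 and 11.24 in the others, a difference of 4.46 ± 1.27. The 2 groups did not overlap for either enzyme, but the other WT tumours were themselves spread out, with tumours 18 and 20 lowest for both.

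Solute carriers followed the same order. Slc13a3, a sodium-coupled carrier of dicarboxylates, was 12.31 and 12.82 in the Rhbg-high tumours, against 8.11, 7.11, 8.51, 8.06 and 9.18 in the other WT tumours (4.37 ± 0.61). Slc16a10, which carries aromatic amino acids, was 8.70 and 10.34 against 4.07 to 6.48 (4.01 ± 0.73), and Slc1a4, a carrier of alanine and serine, was 11.11 and 11.71 against 7.85 to 8.99 (2.90 ± 0.47). All 3 carriers were higher on the Rhbg-high arrays than on any other array of the series. The glutamate carrier Slc1a2 came close to background, at 4.89 and 4.13 in the Rhbg-high tumours, against 2.22 to 3.96 in the other WT tumours. Aldh1l1, a folate enzyme of the same list, overlapped between the groups, at 11.39 and 10.46 against 11.16 to 12.11.

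**Figure D1:**
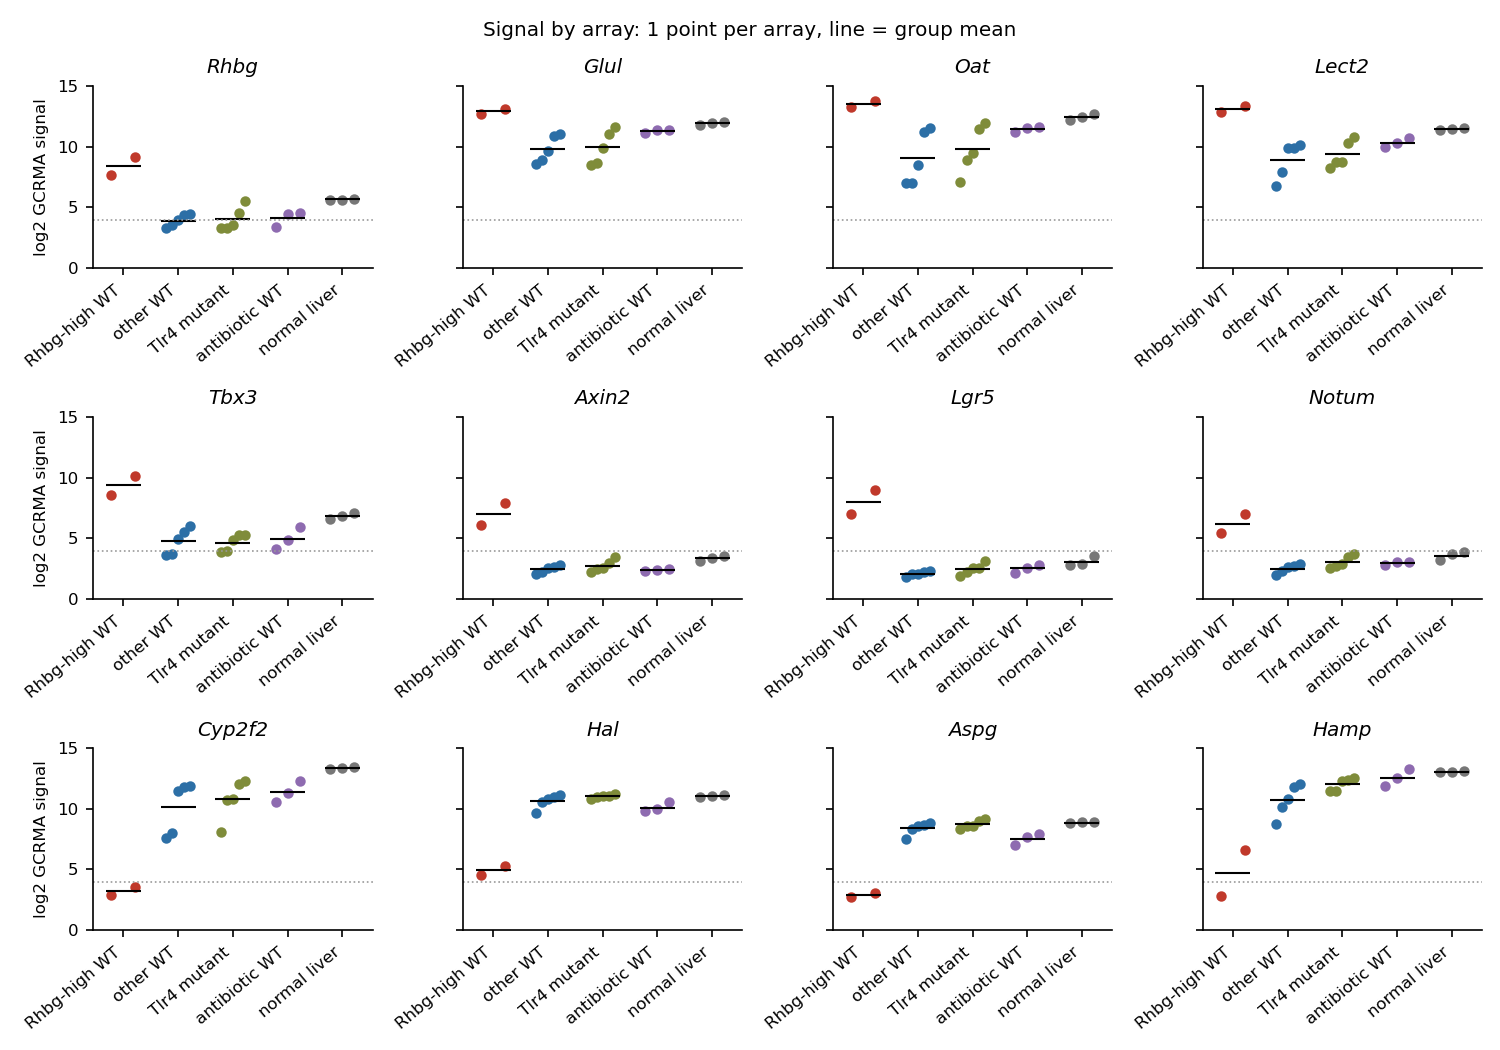
Log2 GCRMA signal (vertical axes) of 12 genes in 5 groups of arrays, 1 point per array sorted by value within its group, with a line at the group mean and a dotted line at the background limit of 4. Rhbg, Glul, Oat, Lect2 and Tbx3 are highest in the 2 Rhbg-high tumours, Axin2, Lgr5 and Notum exceed 4 there alone, and Cyp2f2, Hal, Aspg and Hamp are lowest there.

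Further genes known as beta-catenin targets in liver tumours were mostly, but not uniformly, on the higher side: of 24 measured, 12 lay above all 5 other WT tumours by at least 2-fold and 3 below, with a median difference of 1.38. Lect2, a secreted hepatocyte protein, was 12.87 and 13.33 in the Rhbg-high tumours, against 9.89, 6.74, 7.90, 10.17 and 9.89 in the other WT tumours (4.19 ± 0.82). Tbx3, a T-box transcription factor, was 8.59 and 10.14 against 4.96, 3.76, 3.64, 6.05 and 5.52 (4.58 ± 0.66). Both genes were also above every Tlr4-mutant, antibiotic and normal array. Blvrb, a biliverdin reductase, was 11.69 and 11.15 in the Rhbg-high tumours and 8.87 to 10.07 in the other WT tumours (2.22 ± 0.32). The receptor kinase Mertk (2.08 ± 0.45), the growth factor Tgfa (1.79 ± 0.30) and the ribonuclease Ang (3.59 ± 0.95) were on the same side.

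The 3 genes of that list below all other WT tumours were Slco2a1, Hamp and Cmtm8. Slco2a1, a prostaglandin transporter, was at background in the Rhbg-high tumours, 3.86 and 3.45, against 8.14 to 9.11 in the other WT tumours, which makes it at least 25.7-fold lower. The other probe sets of Slco2a1 were under 4 on all 7 WT tumours. Cmtm8 was 6.30 and 6.06 against 6.78 to 8.18 (-1.45 ± 0.34).

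Some of the Wnt pathway's own feedback genes were among the clearest on the array, and several did not enter the fit because they were above background on 2 arrays only. Of 31 listed feedback and pathway genes on the array, 17 entered the fit, and those that did not are shown only in part. Axin2, the scaffold of the destruction complex that beta-catenin induces, was 6.08 and 7.88 in the Rhbg-high tumours, against 2.06 to 2.85 in the other WT tumours. It stayed under 4 on all 16 other arrays, with 3.12 to 3.59 in normal liver. Lgr5, a receptor for R-spondins, was 7.04 and 9.01 in the Rhbg-high tumours and 1.84 to 2.29 in the other WT tumours, at least 16.3-fold higher when background is set at 4. The Wnt-inactivating enzyme Notum was 5.44 and 6.98 against 2.03 to 2.90, and the membrane inhibitor Apcdd1 7.67 and 10.74 against 2.72 to 3.19. For each of these 4 genes tumour 19 was higher than tumour 17. Nkd1, another feedback inhibitor, was read by 4 probe sets. The first, at 6.03 and 7.48 in the Rhbg-high tumours against 1.72 to 2.10 in the other WT tumours, and the second, at 4.42 and 4.17 against 2.31 to 2.57, were under 4 on all 16 other arrays, and the other two were under 4 on every array. Notum and Apcdd1 were chosen after their values were seen.

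Among the 17 feedback and pathway genes that entered the fit, 3 lay above all 5 other WT tumours by at least 2-fold, 1 below, and the median difference was 0.09. The 3 were Znrf3, Rnf43 and Tnfrsf19. Znrf3 and Rnf43 encode ligases that remove Wnt receptors from the membrane: Znrf3 was 8.29 and 9.09 in the Rhbg-high tumours, against 5.95, 6.72, 6.18, 6.81 and 6.51 in the others (2.25 ± 0.27), and Rnf43 was 6.72 and 8.71 against 3.91, 4.60, 4.87, 5.15 and 5.63 (2.89 ± 0.55). Tnfrsf19, a receptor of the tumour necrosis factor family, was 7.52 and 10.00 against 3.30 to 4.12 (5.04 ± 0.80), and 1 antibiotic tumour reached 7.80. The gene below was the corepressor Tle3, at 4.36 and 4.68 against 4.93 to 5.83.

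The transcript of beta-catenin itself overlapped between the groups: Ctnnb1 was 12.35 and 12.71 in the Rhbg-high tumours, against 12.21 to 12.67 in the others (0.09 ± 0.17). The arrays read transcript levels, so neither a Ctnnb1 mutation nor beta-catenin protein was measured. Ccnd1, the cyclin often listed as a Wnt target, differed by 0.30 ± 0.52. Nlk, a kinase that acts on TCF/LEF factors, was 10.22 and 10.87 in the Rhbg-high tumours and 8.47 to 8.72 in the other WT tumours (1.95 ± 0.17). Over the 15 tumours of the series the tested genes whose pattern was most like that of Rhbg by Pearson correlation were Abhd12, Tbx3, Nlk, Slc13a3 and Gulo, a likeness that rests on tumours 17 and 19. Abhd12, a lipid hydrolase, was 8.45 and 9.01 against 6.17 to 6.44 (2.40 ± 0.19), and Gulo, the last enzyme of vitamin C synthesis, 12.01 and 12.37 against 8.41 to 10.00 (2.70 ± 0.45).

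A further 2 regulators were below background only in the Rhbg-high tumours, among genes picked after their values were seen. Ctnnbip1, an inhibitor that keeps beta-catenin off TCF factors, was 3.02 and 3.47 in the Rhbg-high tumours, against 5.19, 5.36, 5.30, 5.38 and 5.74 in the other WT tumours and 4.54 to 5.57 in normal liver. Tcf7l1, a TCF factor known mainly as a repressor, was 3.48 and 3.64 against 5.10, 5.50, 4.75, 4.65 and 4.35. With each gene of the full array read by its brightest probe set, which leaves out Nkd1, 37 genes exceeded 4 in both Rhbg-high tumours and in no other tumour, and 47 were under 4 in both and over 4 in all other tumours. Besides the genes above, the 37 included Sbspon (7.79 and 8.48 against 1.63 to 1.92), the glycosyltransferase Galnt18 (7.54 and 8.18 against 2.09 to 2.47) and the arginase Arg2 (9.51 and 6.24 against 2.40 to 3.62).

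Because many genes differed together, the promoter windows that RefSeq gives for mouse assembly GRCm38.p6, from 250 bases before to 50 bases after the start, were searched on both strands for a TCF/LEF core, spelled CTTTGAT or CTTTGAA. Of the higher genes in the limma ranking that had a window, 14 of 218 held it (6.42%, exact 95% interval 3.56 to 10.5), and of the lower genes 30 of 380 (7.89%, 5.39 to 11.1). Over all tested genes it was 470 of 7410 (6.34%), so this window gave like shares on both sides. The letters CAAAGTCCA of an HNF4 core were in 1 of 218 windows of the higher genes (0.459%), 6 of 380 of the lower genes (1.58%) and 31 of 7410 of all tested genes (0.418%). The intervals cover counting error only, and a match marks letters, not a bound site. Shown are Axin2 (chr11:108920099-108920398, plus strand) and Glul (chr1:153899679-153899978, plus strand), both higher in the Rhbg-high tumours and without a TCF/LEF match, Lect2 (chr13:56548489-56548788, minus strand), higher with a match, and Hal (chr10:93488518-93488817, plus strand), lower with a match. Axin2 did not enter the fit, so its window is in none of the counts above. Capitals mark the TCF/LEF core, whose first base lies at -32 from the start of Lect2 and at -199 from that of Hal.
Axin2: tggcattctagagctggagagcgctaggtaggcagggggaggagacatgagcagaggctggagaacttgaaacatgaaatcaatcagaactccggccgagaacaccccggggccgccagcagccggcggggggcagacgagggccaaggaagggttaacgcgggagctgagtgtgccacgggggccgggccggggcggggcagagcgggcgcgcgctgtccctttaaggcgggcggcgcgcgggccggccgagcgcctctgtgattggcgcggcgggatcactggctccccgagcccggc
Glul: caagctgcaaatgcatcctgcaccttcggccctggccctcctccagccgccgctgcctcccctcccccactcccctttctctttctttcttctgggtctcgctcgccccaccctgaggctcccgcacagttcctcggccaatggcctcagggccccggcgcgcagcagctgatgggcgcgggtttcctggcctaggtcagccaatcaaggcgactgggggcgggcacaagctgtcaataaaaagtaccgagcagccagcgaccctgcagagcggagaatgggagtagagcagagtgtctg
Lect2: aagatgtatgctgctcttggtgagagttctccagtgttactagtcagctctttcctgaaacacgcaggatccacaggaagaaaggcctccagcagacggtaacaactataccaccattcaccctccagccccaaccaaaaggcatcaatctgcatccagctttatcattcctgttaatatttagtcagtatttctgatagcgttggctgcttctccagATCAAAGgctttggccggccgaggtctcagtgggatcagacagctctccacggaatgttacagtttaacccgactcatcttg
Hal: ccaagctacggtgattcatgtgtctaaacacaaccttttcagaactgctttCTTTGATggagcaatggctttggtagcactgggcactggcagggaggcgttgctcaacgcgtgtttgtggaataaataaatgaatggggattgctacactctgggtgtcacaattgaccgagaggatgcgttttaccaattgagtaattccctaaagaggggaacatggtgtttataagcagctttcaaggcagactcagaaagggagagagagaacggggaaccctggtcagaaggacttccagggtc

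Periportal genes lay on the opposite side. Of 30 measured, 14 were below all 5 other WT tumours by at least 2-fold, all 14 also below all 16 other arrays, and 1, G6pc, was above. The median difference was -1.61, with -0.94 in tumour 17 and -2.28 in tumour 19. Cyp2f2, a periportal P450, was 2.92 and 3.58 in the Rhbg-high tumours, under background, against 11.46, 7.99, 7.60, 11.81 and 11.85 in the other WT tumours and 13.25 to 13.46 in normal liver, which makes it at least 70.7-fold lower than in the other WT tumours. Hal, the histidine ammonia-lyase whose promoter is printed above, was 5.26 and 4.58 against 9.68, 11.11, 10.76, 10.97 and 10.54 (-5.69 ± 0.30). In the Tlr4-mutant tumours it was 10.82 to 11.21 and in the antibiotic tumours 9.82 to 10.52, so that the Rhbg-high tumours stood alone on the low side.

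The same held for Pigr and Hsd17b13. Pigr, which carries immunoglobulin A across hepatocytes, was 9.73 and 9.06 in the Rhbg-high tumours, against 12.35 to 13.01 in the other WT tumours (-3.34 ± 0.20). Hsd17b13, a lipid droplet enzyme, was 5.68 and 5.96 against 9.36 to 9.75 (-3.73 ± 0.28). The urea cycle was lower in parts: Arg1 was 11.35 and 9.56 against 13.07 to 13.50 (-2.82 ± 0.31), Cps1 11.86 and 9.35 against 12.28 to 13.00 (-2.23 ± 0.43) and Otc 11.45 and 9.25 against 11.52 to 12.67 (-1.87 ± 0.41). All 3 were lower in tumour 19 than in tumour 17. Ass1 and Asl, the middle steps of the cycle, overlapped between the groups. Arg1, Cps1, Otc, Ass1 and Asl were chosen after their values were seen.

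**Figure D2:**
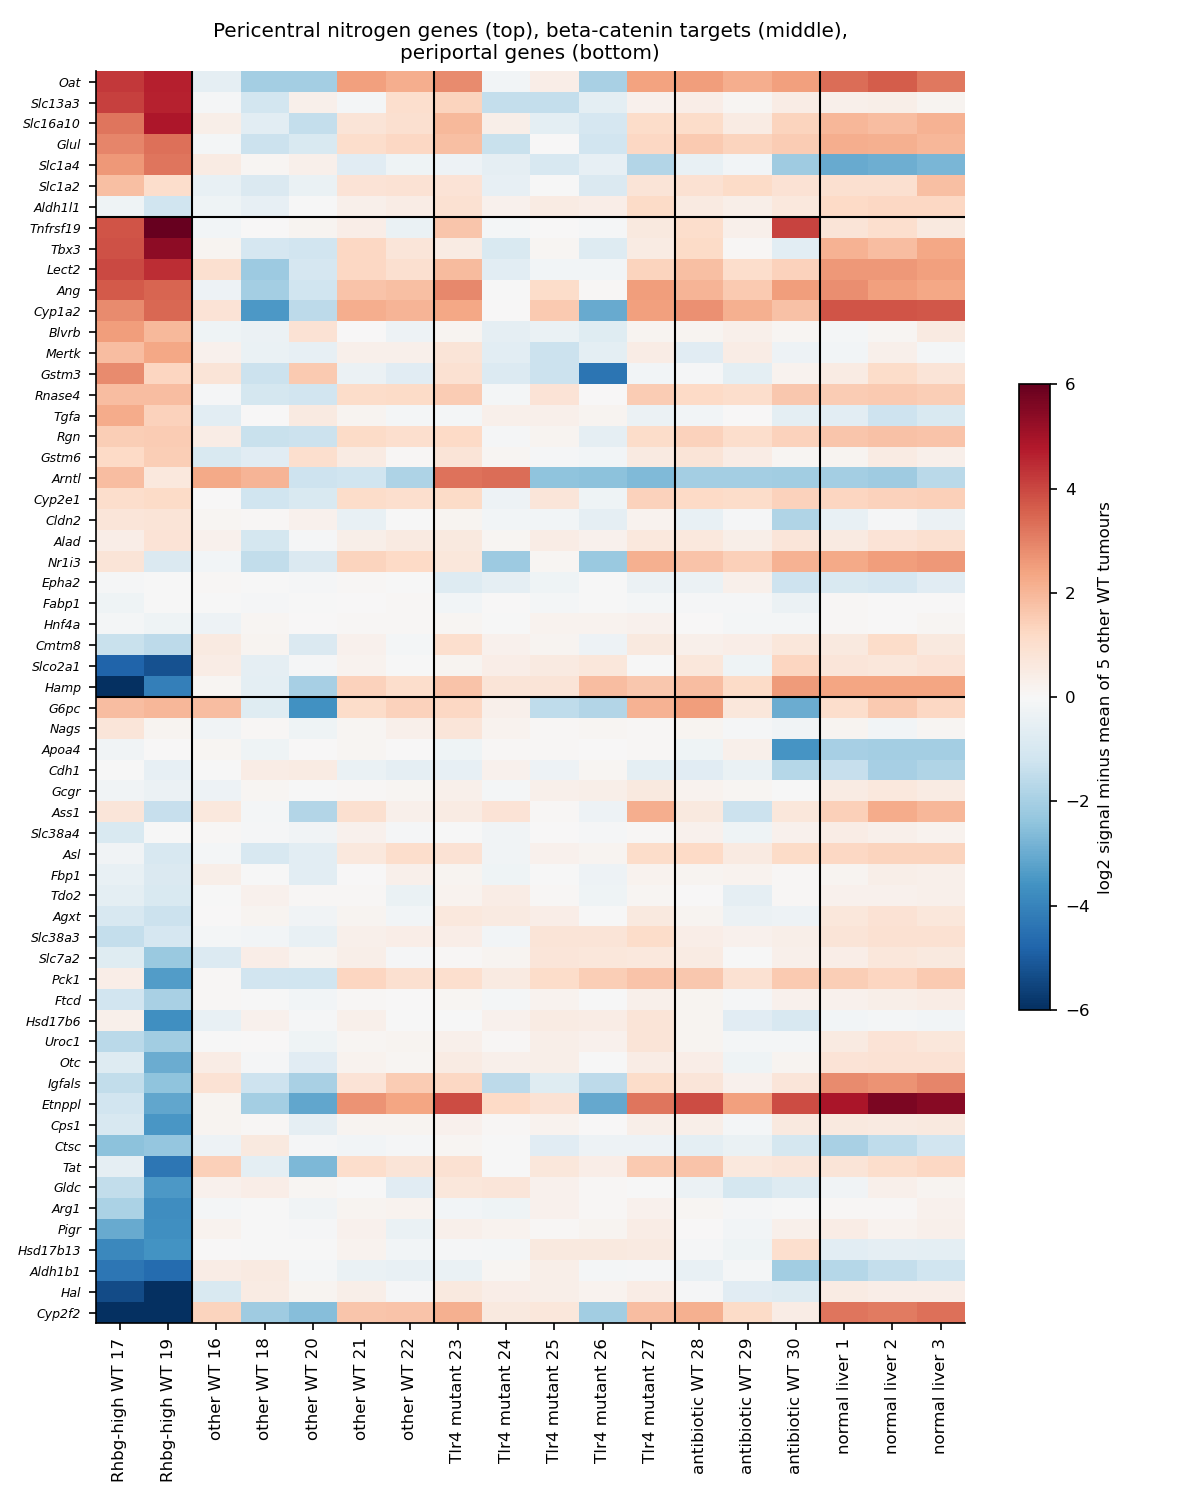
Log2 signal minus the mean of the 5 other WT tumours (colour) for the tested pericentral nitrogen genes (top), beta-catenin targets (middle) and periportal genes (bottom) on 18 arrays (columns). The 2 Rhbg-high columns on the left are red in the top block for every gene but Aldh1l1, and blue in most of the lower rows of the bottom block, where Cyp2f2 and Hal differ by -6.89 and -5.69.

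Amino acid and one-carbon breakdown was lower too: of 38 measured genes, 13 were below all 5 other WT tumours by at least 2-fold and 0 above, with a median difference of -0.82. Bhmt, which remakes methionine from betaine, was 11.98 and 10.34 in the Rhbg-high tumours, against 14.28, 13.53, 13.48, 14.08 and 13.97 in the other WT tumours (-2.70 ± 0.38). Mat1a, which makes S-adenosylmethionine, was 11.18 and 10.65 against 11.64 to 13.02 (-1.69 ± 0.31). Gatm, the first enzyme of creatine synthesis, was at background, 1.52 and 3.30 against 4.59 to 6.71, at least 2.88-fold lower. Outside the list, Aspg, an asparaginase, was 3.03 and 2.72 against 7.53 to 8.81, at least 21-fold lower, and Sfxn1, the mitochondrial serine carrier, was 4.74 and 6.56 against 10.64 to 11.13 (-5.32 ± 0.30). On both genes the groups were apart by several times the spread of the other WT tumours.

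Normal liver lay between the 2 tumour groups for the pericentral nitrogen genes and the beta-catenin targets, and above both for the periportal genes and the pericentral P450 and drug metabolism genes. The median difference from normal liver over the pericentral nitrogen genes was 1.07 in the Rhbg-high tumours and -1.25 in the other WT tumours. For the beta-catenin targets it was 0.56 in the Rhbg-high tumours and -0.78 in the others, and for the periportal genes -2.16 and -0.48. Over the pericentral P450 and drug metabolism genes it was -0.42 in the Rhbg-high tumours and -0.82 in the others. The normal livers differed from the tumours in RNA quality and labelling controls. The spike control Dap was 10.16 to 10.50 in normal liver and 1.77 to 2.22 in the tumours. The Gapdh 3' minus 5' signal was 0.20 to 1.02 in the tumours and 1.37 to 1.61 in normal liver. The part of either control in these levels was not tested. Within the WT tumours the Gapdh signal was 0.20 and 0.57 in tumours 17 and 19, against 0.31 to 0.62 in the others, with overlap. The Cre and Dap spikes overlapped too. The beta-actin 3' minus 5' signal was narrowly above the others, at 2.16 and 2.466 against 1.904 to 2.155. The bioD spike was narrowly below them, at 10.38 and 10.466 against 10.488 to 10.752. The part of these controls in the differences between the 2 groups was not tested.

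P450 and drug metabolism genes of the pericentral zone were divided: of 49 measured, 8 were above all 5 other WT tumours by at least 2-fold and 3 below, and the median difference was 0.48. Cyp2c39 was 8.70 and 7.90 in the Rhbg-high tumours, against 3.43, 2.10, 2.59, 3.56 and 3.35 in the other WT tumours, at least 19.6-fold higher, although 1 antibiotic tumour reached 8.40. Cyp2c55 was 8.68 and 7.75 against 2.19 to 4.61 (4.82 ± 0.90). The xenobiotic receptor Ahr was 12.35 and 10.96 against 8.78 to 10.04 (2.52 ± 0.37), and the glutathione transferase Gstm2 10.76 and 10.73 against 6.98 to 8.49 (2.93 ± 0.49). Of the textbook pericentral P450s, Cyp2e1 was 13.59 and 13.68 against 12.59, 11.33, 11.61, 13.62 and 13.56 and overlapped. Cyp1a2 was above all 5, at 12.19 and 12.78 against 10.17, 5.89, 7.78, 11.56 and 11.38. Its difference of 3.13 ± 1.44 stood beside a wide spread in the other WT tumours, of which 18 and 20 were lowest. Cyp2b9, a P450 of female liver, was lower, at 2.67 and 5.33 against 7.80 to 9.53 (-4.59 ± 0.69), and Ugt2a3, a glucuronosyltransferase, differed by -1.42 ± 0.28.

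**Figure D3:**
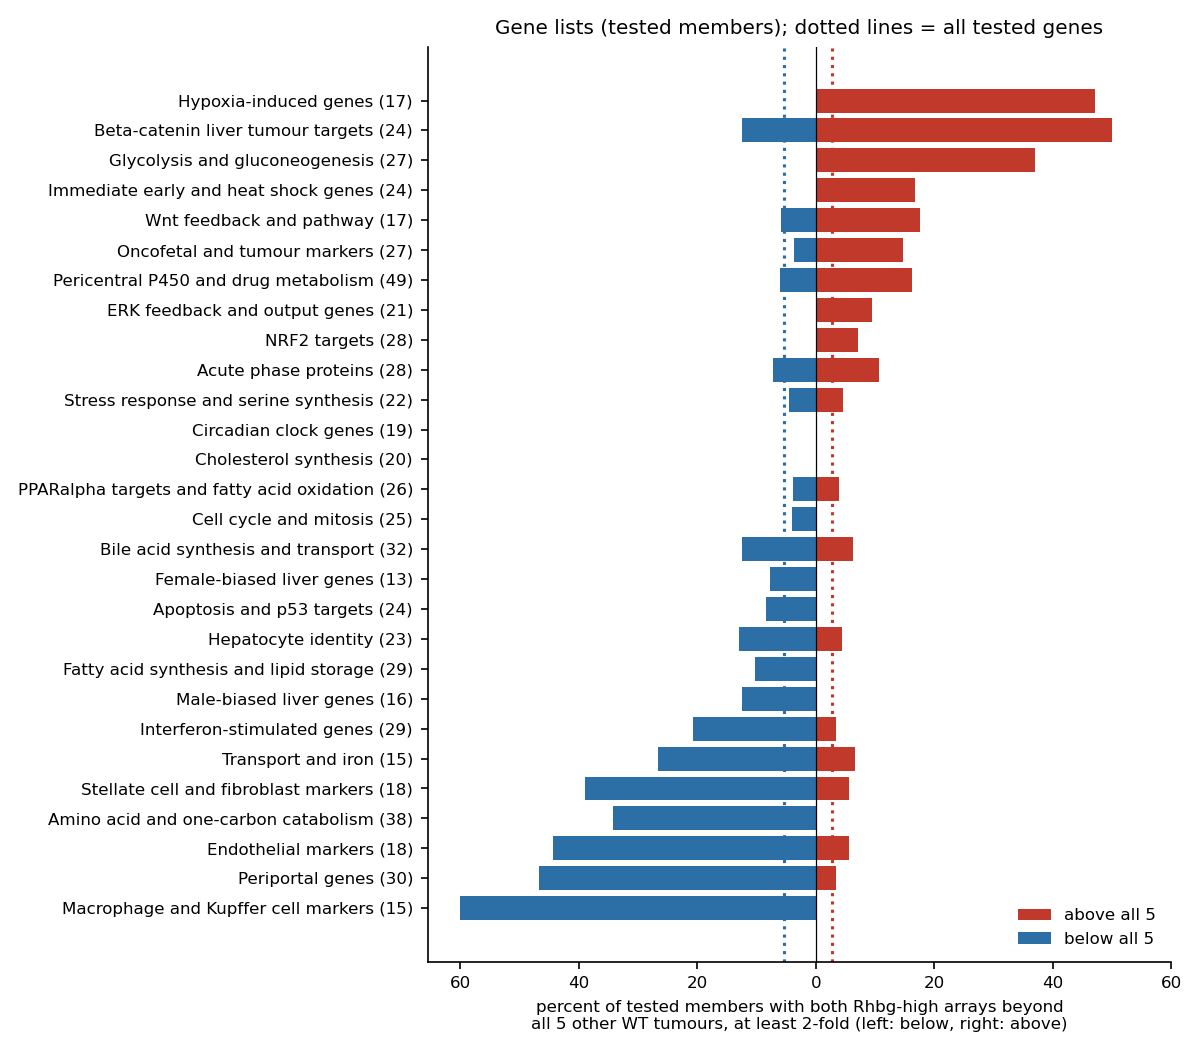
Percent of the tested members of each gene list (number in brackets) whose values in both Rhbg-high tumours lie above (right) or below (left) all 5 other WT tumours by at least 2-fold, for lists with at least 10 tested members. Dotted lines mark all tested genes, 2.78% above and 5.3% below, and the bars for beta-catenin targets, hypoxia genes and glycolysis extend furthest right, those for macrophage and periportal genes furthest left.

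The 12 largest positive differences were taken among tested genes past the limma threshold that also lay above all 5 other WT tumours. The first 5 were Plat, Cpe, Pnliprp1, Stc1 and Avpr1a, which are in none of the gene lists. Plat, the tissue plasminogen activator, was 12.02 and 12.45 in the Rhbg-high tumours, against 3.33, 3.76, 4.77, 3.39 and 2.96 in the other WT tumours (8.59 ± 1.34), and reached 8.40 in 1 Tlr4-mutant tumour and 7.67 in 1 antibiotic tumour. Cpe, the hormone-processing carboxypeptidase E, was 11.41 and 10.92 against 2.52, 5.63, 2.62, 2.70 and 2.94 (7.88 ± 1.43). It reached 8.84 in 1 antibiotic tumour and 6.13 in 1 Tlr4-mutant tumour. Plat and Cpe were both at background in normal liver, at 2.59 to 2.75 and 2.58 to 2.80. Pnliprp1, a relative of pancreatic lipase, was 9.0 and 8.44 against 2.07 to 2.37, at least 26.4-fold higher. The hormone stanniocalcin, Stc1, was 9.81 and 9.88 against 2.29, 2.76, 3.98, 4.08 and 4.70 (6.28 ± 0.75), and the vasopressin receptor Avpr1a was 9.94 and 10.21 against 6.43, 3.03, 2.80, 4.72 and 3.99 (5.88 ± 1.02). The groups were separate for all 5 genes, and Avpr1a was the only one of them above background in normal liver (5.62 to 6.62).

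The remaining 7 were Cyp2c39, Tnfrsf19 and Cyp2c55, described above, and Kitl, Rcan2, Cdh17 and Lhpp. Kitl, the ligand of the Kit receptor, was at 6.50 and 8.85 in the Rhbg-high tumours, against 2.53 to 3.02 in the other WT tumours, at least 12.8-fold higher, and Cdh17, a cadherin of the intestine, was at 7.38 and 8.56 against 1.74 to 4.06 (4.79 ± 0.49). Rcan2, a calcineurin regulator, differed by 4.85 ± 1.36, and the phosphatase Lhpp by 4.77 ± 0.74. Rcan2 was 9.51 and 9.37 in the Rhbg-high tumours, and 1 antibiotic tumour, at 9.42, lay between them. The 12 largest negative differences, taken by the same rule on the lower side, were those of Cyp2f2, Hamp, Hal, Aspg, Sfxn1, Vsig4, Ces1e, Clec4g, Slco2a1, Aqp4, Olfm3 and Upp2. Ces1e, a carboxylesterase, was 4.14 and 3.28 in the Rhbg-high tumours, against 9.11, 6.48, 7.46, 10.60 and 10.49 in the other WT tumours (-5.12 ± 1.23), and the water channel Aqp4 was 1.05 and 1.52 against 4.76 to 7.81, at least 4.2-fold lower. Upp2, a uridine phosphorylase, differed by -4.70 ± 1.23, and Olfm3 was at least 7.01-fold lower.

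Hepcidin and its neighbours in iron handling were lower: of 15 measured iron genes, 4 were below all 5 other WT tumours by at least 2-fold and 1 above. Hamp, which encodes hepcidin, the hormone that limits iron uptake, was 2.84 and 6.60 in the Rhbg-high tumours, against 10.83, 10.12, 8.71, 12.07 and 11.77 in the other WT tumours (-5.98 ± 0.87), and 13.06 to 13.07 in normal liver. Slc40a1, the iron exporter that hepcidin removes, was 10.55 and 9.68 against 10.96 to 11.59 (-1.07 ± 0.26), and the haemochromatosis gene Hfe 7.88 and 7.48 against 8.26 to 8.69 (-0.80 ± 0.19). The iron importer Slc11a2 was higher, at 6.31 and 6.23 against 3.83 to 5.26 (1.88 ± 0.47), and so was the ferritin heavy chain Fth1, by 0.47 ± 0.11. For Slc11a2 1 Tlr4-mutant tumour, at 6.48, was above both Rhbg-high tumours.

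Genes known to be induced by hypoxia stood out on the higher side: of 17 measured, 8 were above all 5 other WT tumours by at least 2-fold and 0 below, with a median difference of 1.10. Ndrg1 was 12.02 and 11.92 in the Rhbg-high tumours, against 8.81, 8.98, 8.59, 7.65 and 8.43 in the other WT tumours (3.48 ± 0.69). The histone demethylase Kdm3a was 9.37 and 8.98 against 7.80 to 8.39 (1.10 ± 0.20), and Ero1a, an oxidase of the endoplasmic reticulum, 9.33 and 9.51 against 7.18 to 8.24 (2.00 ± 0.53). For Ero1a 1 antibiotic tumour reached 9.50. Of 27 glycolysis and gluconeogenesis genes, 10 were above and 0 below, with a median difference of 0.36. Pdk4, which holds back pyruvate oxidation, was 8.25 and 9.71 in the Rhbg-high tumours, against 5.54, 4.18, 4.30, 3.44 and 4.07 in the other WT tumours (4.68 ± 0.55), the lactate dehydrogenase subunit Ldhb was 6.04 and 8.42 against 3.43 to 4.18 (3.54 ± 0.47), and the pyruvate kinase Pkm 5.19 and 7.74 against 3.56 to 4.34 (2.47 ± 0.67). Ldhb and Pkm were higher in tumour 19 than in tumour 17.

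Markers of cells other than hepatocytes moved with the split, and their part in the differences of other genes was not tested. Of 15 macrophage and Kupffer cell genes, 9 were below all 5 other WT tumours by at least 2-fold and 0 above. The summed level of the 6 defining macrophage markers was 7.87 and 8.46 in the Rhbg-high tumours and 9.82 to 11.42 in the others (log2). Vsig4, a complement receptor of Kupffer cells, was 2.50 and 4.16 against 9.80, 6.44, 8.16, 8.80 and 9.48 (-5.21 ± 0.99), and Cd5l, a secreted macrophage protein, 4.03 and 7.56 against 8.73 to 10.84 (-3.97 ± 0.84). Vsig4 was under background in tumour 17 only.

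Sinusoidal endothelial genes were lowest in tumour 17. Of 18 endothelial genes, 8 were below all 5 other WT tumours by at least 2-fold and 1 above, and the median difference was -2.07 in tumour 17 and -0.77 in tumour 19. The summed level of the 6 defining endothelial markers was 5.65 in tumour 17 and 8.11 in tumour 19, against 9.66 to 10.75 in the other WT tumours, with Pecam1 under background on all 7. The lectin Clec4g was 2.33 and 6.11 in the Rhbg-high tumours, against 10.08, 8.40, 9.05, 8.94 and 9.81 in the others (-5.03 ± 0.75), and the scavenger receptor Stab2 3.21 and 4.84 against 7.09 to 7.70 (-3.29 ± 0.38). Fcgr2b, the Fc receptor of these cells, differed by -2.71 ± 0.46. Flt1, the endothelial gene on the other side, was 4.75 and 6.46 against 3.18 to 4.53.

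Of 18 stellate cell and fibroblast genes, 7 were below and 1, Reln, was above. The proteoglycan Dcn was 4.71 and 6.77 in the Rhbg-high tumours, against 9.41 to 10.71 in the other WT tumours (-4.29 ± 0.56), Bgn differed by -2.41 ± 0.42 and the pericyte gene Rgs5 by -2.93 ± 0.66, while Reln was 12.28 and 12.13 against 9.36 to 10.86 (1.94 ± 0.46). The summed stellate markers were 8.34 and 10.0 in the Rhbg-high tumours and 10.45 to 11.13 in the others, with Des and Col1a1 under background on all 7. Of 5 measured B and plasma cell genes, 4 were below, Igha, Ighm, Jchain and Cd74, the last of which is also in the class II list. Igha, the immunoglobulin A heavy chain, was 6.03 and 2.87 against 6.78, 9.73, 9.43, 8.04 and 9.04 (-4.15 ± 0.91), Ighm was 2.48 and 2.38 against 5.22 to 7.13, and Jchain 3.99 and 1.79 against 4.77 to 7.39. The class II genes, Cd74 included, were below in 4 of 4, among them H2-Eb1 at 5.32 and 5.34 against 6.86 to 8.61 (-2.56 ± 0.85), and the single measured T and NK cell gene, Ccl5, was at least 2.13-fold lower. Cd3d, Cd3e, Cd3g and Nkg7, which define T and NK cells, were under background on all 7 arrays.

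The summed level of the hepatocyte markers was 16.13 and 16.17 in the Rhbg-high tumours and 16.25 to 16.32 in the others, close but without overlap. The brightest markers weigh most in such a sum. Of 4 cholangiocyte and progenitor genes, 1 was above and 2 below, and Krt19 and Krt7 were under background on all 7 arrays. Neutrophil (2 measured), adipocyte and muscle (2) and pancreatic acinar genes (1) had 0 beyond the other WT tumours by 2-fold, and of 3 erythroid genes 1, the carbonic anhydrase Car2, was above (7.57 and 8.71 against 3.71 to 6.22). For Car2 1 antibiotic tumour, at 8.25, lay between the Rhbg-high tumours. S100a8, the largest difference of the neutrophil list, was 3.43 and 6.38 against 4.07 to 7.46, Fabp4 of the adipocyte list differed by -0.27 ± 0.71, and Cela1, the elastase of the acinar list, by 0.82 ± 0.55.

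**Figure D4:**
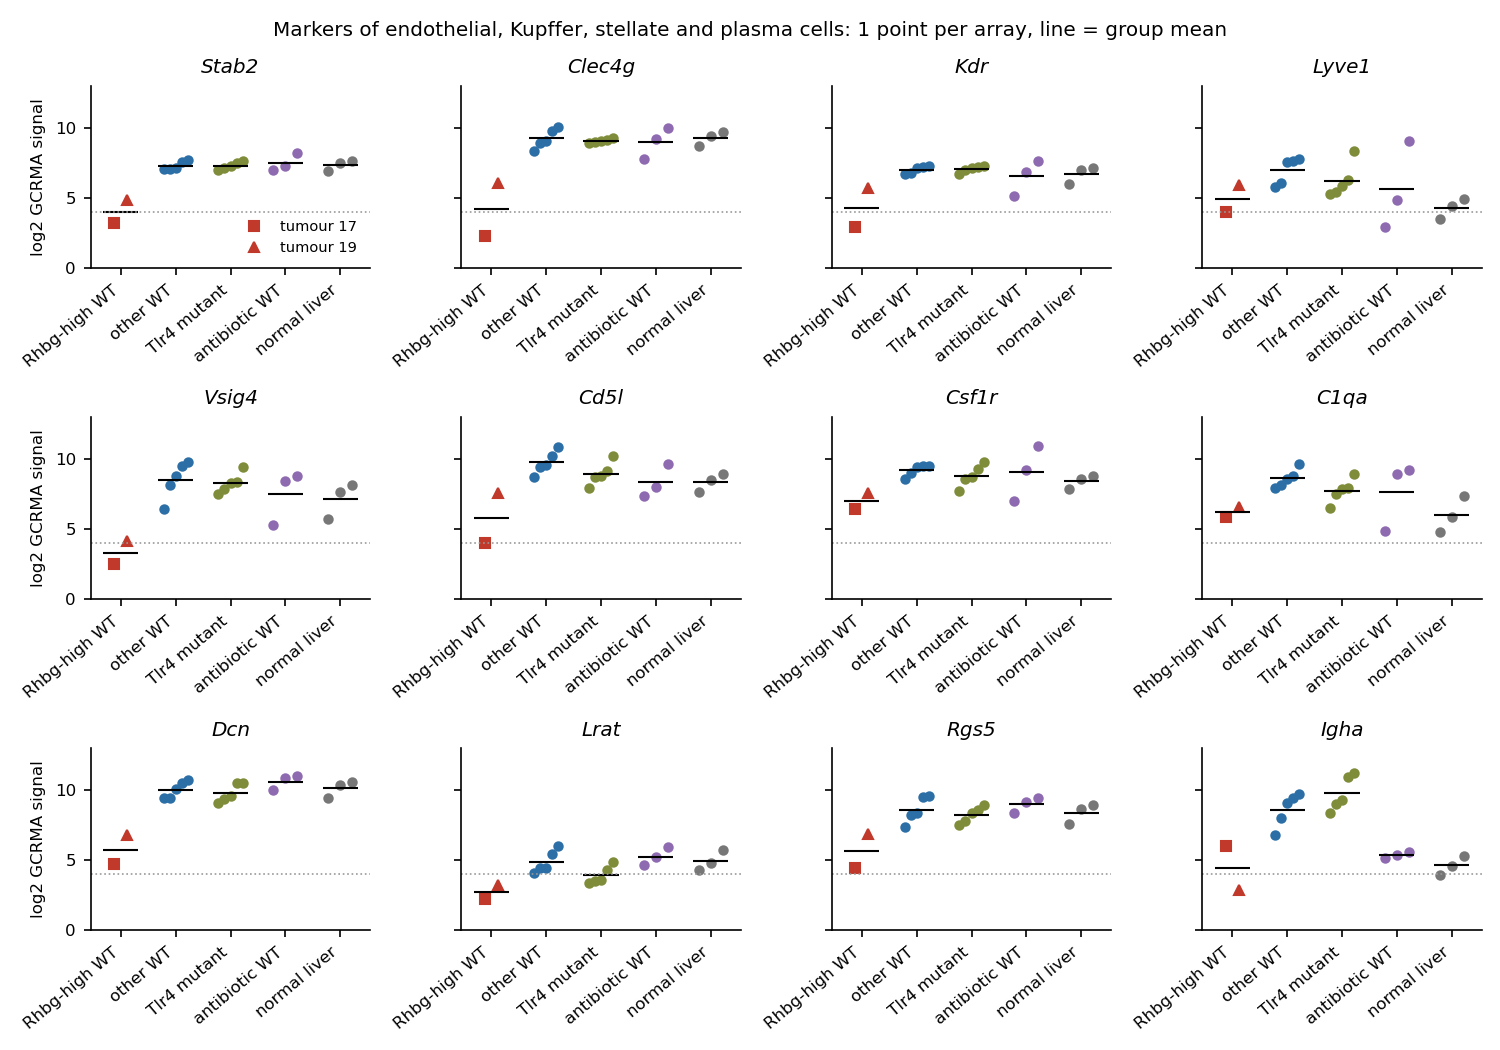
Log2 GCRMA signal (vertical axes) of 12 markers of sinusoidal endothelial, Kupffer, stellate and plasma cells in 5 groups of arrays, 1 point per array, with a line at the group mean and a dotted line at 4. Tumour 17 (square) and tumour 19 (triangle) lie below the 5 other WT tumours for all genes shown but Lyve1, where tumour 19 is among them, and tumour 17 is the lower of the pair for every gene shown except Igha.

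Tlr4, the lipopolysaccharide receptor, was at background in both groups (3.28 and 2.73 against 2.63 to 3.82), and its co-receptor Cd14 was 10.26 and 9.62 in the Rhbg-high tumours against 8.31, 9.44, 10.18, 9.13 and 7.34 in the others, with overlap. Of 29 interferon-stimulated genes, 6 were below all 5 other WT tumours by at least 2-fold (20.7%) and 1 above (3.45%), beside 5.3% and 2.78% of all tested genes. Usp18 was the one above, at 9.72 and 10.21 against 7.09 to 8.30 (2.21 ± 0.34), while the RNA sensor Ddx58 differed by -0.89 ± 0.15. Of 28 acute phase genes, 3 were above, Il1r1, Saa3 and Socs3, and 2 below: the interleukin receptor Il1r1 was 8.73 and 8.63 against 4.81 to 6.96 (2.74 ± 0.70), and Hamp and its copy Hamp2 were the ones below. For Il1r1 1 Tlr4-mutant tumour, at 8.95, was above both Rhbg-high tumours.

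The fetal liver protein Afp was 14.37 and 14.15 in the Rhbg-high tumours, against 13.80, 13.20, 13.72, 13.25 and 13.09 in the other WT tumours (0.85 ± 1.14), and 4.32 to 5.38 in normal liver. A dimmer probe set of Afp was 13.76 and 13.02 in the Rhbg-high tumours, against 8.25, 11.52, 12.02, 11.37 and 11.32 in the others, so the groups were separate on both. Gpc3 (11.26 and 10.93 against 6.27, 11.08, 10.66, 9.89 and 7.47) and the proliferation gene Mki67 (7.66 and 8.23 against 8.14, 8.94, 6.69, 6.33 and 5.30) overlapped. Of 27 oncofetal genes, 4 were above and 1, Peg3, below, at 2.25 and 2.27 against 8.47, 10.31, 5.97, 4.80 and 2.41. Cell cycle genes counted 0 above and 1 below of 25. The gene below was Ccne1, a cyclin, at 3.69 and 3.49 against 4.05 to 5.89. Of 21 ERK output genes, 2 were above, Dusp4 and Ier3, and 0 below. The phosphatase Dusp4 was 5.96 and 6.96 against 3.24 to 5.16 (2.23 ± 0.45). Dusp6 was 12.29 and 12.02 against 10.62 to 11.67, a difference under 2-fold (0.77 ± 0.46), and the receptor Egfr overlapped (11.26 and 11.25 against 9.32 to 11.82).

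Liver lipid and bile acid programmes differed in their share of genes beyond the other WT tumours, beside 2.78% above and 5.3% below over all tested genes. Of 32 bile acid genes, 2 were above (6.25%) and 4 below (12.5%). Baat, which conjugates bile acids, was 7.95 and 6.82 against 8.93 to 10.32 (-2.36 ± 0.43), and Amacr, a racemase of the pathway, was higher by 0.83 ± 0.21. Cyp7a1, which starts the main route from cholesterol to bile acids, was 5.98 and 8.16 in the Rhbg-high tumours, against 8.77, 5.29, 4.26, 10.89 and 10.73 in the other WT tumours, with overlap. Cholesterol synthesis counted 0 and 0 of 20, with Mvd the largest difference (-0.92 ± 0.49). Fatty acid synthesis and storage counted 0 above and 3 below of 29 (10.3% below), among them the regulator Srebf1 (9.23 and 10.11 against 10.28 to 11.37, -1.30 ± 0.35). PPARalpha targets counted 1 above, Pdk4, and 1 below of 26 (3.85% each).

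Of 23 hepatocyte identity genes, 1 was above, Tbx3, and 3 were below. Onecut1, a hepatocyte transcription factor, was 3.06 and 2.67 in the Rhbg-high tumours, against 8.05, 5.94, 6.77, 5.01 and 9.05 in the other WT tumours, at least 7.79-fold lower, and Cebpa was 8.83 and 8.29 against 9.34 to 10.07 (-1.09 ± 0.23). Male-biased genes counted 0 above and 2 below of 16, Mup3 among them (-3.37 ± 1.00), and female-biased genes 0 above and 1 below, Cyp2b9, of 13. NRF2 targets counted 2 above and 0 below of 28, with the cystine carrier Slc7a11 high in tumour 17 and in 1 other WT tumour (7.57 and 4.99 against 1.77, 2.45, 7.48, 2.92 and 2.07). Immediate early and heat shock genes counted 4 above and 0 below of 24, with Fos at 10.77 and 10.99 against 7.18, 7.40, 8.51, 9.14 and 9.34 (2.57 ± 0.80). Stress response genes counted 1 above, Ddit3 (1.84 ± 0.54), and 1 below, Herpud1 (-1.12 ± 0.25), of 22. Apoptosis and p53 genes counted 0 above and 2 below of 24, Perp (-1.07 ± 0.26) and Bcl2 (-2.38 ± 0.61), and clock genes 0 and 0 of 19, the largest difference being that of Usp2, at 2.66 and 3.28 against 2.93, 2.96, 2.84, 8.04 and 8.10.

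Tumours 17 and 19 shared this pattern but were not alike. Gene by gene they lay 0.702 apart (root mean square, log2), against 0.864 to 1.06 between either of them and any other WT tumour. Pairs among the other WT tumours lay from 0.439 apart, for 21 and 22, to 0.820, for 18 and 22, so 0.702 was within their range. Between tumours 17 and 19, 891 genes differed at least 2-fold, 565 of them higher in tumour 19. The acute phase protein Orm2 was 12.59 in tumour 17 and 4.32 in tumour 19, with 3.22 to 8.42 in the other WT tumours. Transcripts of the imprinted Dlk1 and Dio3 region were high in tumour 17, with Meg3 at 11.40 and Rian at 9.84, and lower in tumour 19, at 4.55 and 2.03. The growth factor Igf2 was 8.29 in tumour 17 and 2.63 in tumour 19, and among the other WT tumours it reached 8.78 in 1 and was under background in 4. In the other direction, the leptin receptor Lepr was 7.79 in tumour 17 and 11.86 in tumour 19, and the transcription cofactor Lmo2 4.55 and 9.60. These genes were chosen after their values were seen.

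**Figure D5:**
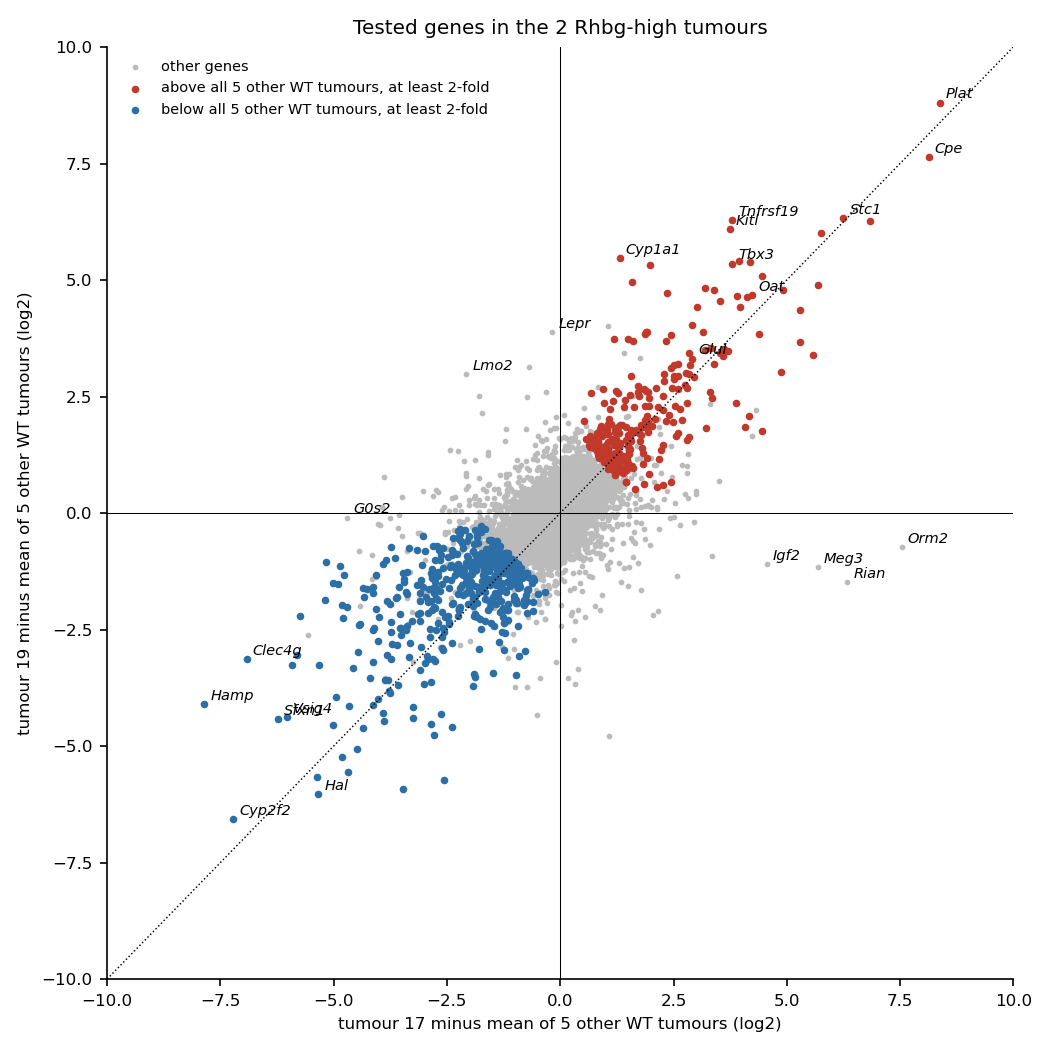
Each point is 1 tested gene: the horizontal axis is tumour 17 and the vertical axis tumour 19, each minus the mean of the 5 other WT tumours (log2). Red points (252 genes) lie above all 5 other WT tumours in both by at least 2-fold, blue points (480) below, and grey points such as Orm2, Meg3, Rian and Igf2 are far higher in tumour 17 than in tumour 19.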

How the data were processed

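The log2 signals were deposited by the authors as GCRMA values, background-corrected and summarised per probe set, per the submitters' processing notes, which give no GCRMA version. According to the labels' protocols, 100 ng of RNA was amplified with a 3' kit. Of 45101 probe sets, 64 controls were left out and 16663 exceeded log2 4 on at least 3 arrays. Of several kept probe sets of a gene, the brightest on average over all 18 arrays was used, which gave 9052 genes with 1 symbol, Rhbg left out. A linear model of 5 group means was fitted with limma 3.58.1 in R 4.3.3, with Benjamini-Hochberg adjustment. Where all arrays of a group were under log2 4, the fold was computed against 4 and given as at least that large. Arrays have no read depth, and their number, 2 against 5, limits the precision.

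Named genes were the 12 largest differences in each direction among genes with a limma adjusted p under 0.05 that also lay beyond all 5 other WT tumours. Each list gave up to 3 members per direction, those of smallest p past that threshold. A list without such a member gave its largest difference. Fixed single genes and the 5 genes most like Rhbg were added. Members, lists and tests were chosen with earlier results of these data known. On simulated data with 9052 genes, the fit recovered 59% of 2-fold and 91% of 4-fold changes, with 7 false calls of 157. The share of false calls in the real arrays, which were split on Rhbg, was not tested. Alternatives varied the filter, probe set choice, scaling, variance model, threshold, fold, motif and the arrays used. Promoters were matched by symbol, 7410 of 9052 genes. Figures were drawn with matplotlib 3.10.9 in Python 3.11.15.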

Additional observations from a re-analysis of the deposited data

Results flagged for a closer look

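Of 211 sets of values of the named genes in the WT tumours, 10 had 1 tumour standing apart from the rest by Dixon's criterion at its 95% limit, where chance gives about 1 in 20. Within all 7 WT tumours, Perp, a p53 target of cell adhesion, was lowest in tumour 17 (8.85, the next value being 10.19), and Pkm was highest in tumour 19 (7.74, the next value being 5.19). The other 8 concern the 5 other WT tumours. Tumour 16 stood apart for Dusp6 (10.62), Sfxn1 (10.64) and Ahr (10.04), tumour 18 for Gulo (8.41) and Cpe (5.63), tumour 20 for Mat1a (11.64) and Slc7a11 (7.48), and tumour 22 for Ero1a (8.24). For Dusp6, Sfxn1, Gulo and Mat1a the single tumour was low, and for Ahr, Cpe, Slc7a11 and Ero1a it was high.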

How the results depend on the processing

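The limma counts moved with the choice of arrays and threshold: 146 higher and 198 lower genes with only the 7 WT tumours in the fit, 107 and 164 at an adjusted p under 0.01, 164 and 297 with a 2-fold minimum, and 475 higher probe sets when every probe set was counted by itself. Leaving out each WT tumour in turn gave 131 to 254 higher and 244 to 498 lower genes, lowest without tumour 19 and without tumour 17. Genes above and below all 5 other WT tumours numbered 912 and 1393 with no minimum fold and 99 and 170 at 4-fold, and 262 to 373 and 493 to 756 with each WT tumour left out, highest without tumour 19. A looser motif, CTTTG with any 2 bases after it, was in 43.6% of windows of higher genes, 51.6% of lower genes and 46.7% of all tested genes. With a WT tumour left out, 4 differences turned: S100a8 ranged from -2.09 without tumour 19 to 0.86 without tumour 17, Fabp4 from -1.16 to 0.61, Cyp7a1 from -2.01 to 0.18, and Ctnnb1 from -0.086 without tumour 19 to 0.27 without tumour 17. The causes were not tested. Of the other values for named genes, 1166 kept their direction and side of the threshold under alternative settings, 79 passed it no longer, 1 newly passed and 0 turned, and with a tumour left out 639 kept both, 91 passed it no longer and 1 newly passed. No paired analysis was possible because the tumours carry the numbers 16 to 22 once each. Signals near 4 limit what can be said of dim genes.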
